A study of Mus musculus with 28 samples.

Results

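A stretch of distal chromosome 7 of the mouse was examined, from 151 to 152.2 Mb (mm9, with all positions below counted from 1), which holds Shank2, Ano1, Fgf3, Fgf4, Fgf15 and Ccnd1. It was chosen by the measured share of chromatin state U1 in cells without SIRT7, since it includes the 1 Mb window of the autosomes where that share was lowest in GS relative to NT. It comprises 6000 of the 13274547 bins of 200 bp into which the deposited segmentations divide the genome. The U1 shares of the knockout in both treatments chose it, so they are given as a description, and no test is attached to them.

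Chromatin came from MEFs, fibroblasts grown from mouse embryos, of strain 129s2, described as 14.5 day and used at passages 3 to 4, and was profiled by ChIP-seq. The genotypes were wild type (WT) and SirT7-/- (KO), without the nuclear deacylase SIRT7, and treatment is labelled NT or GS, which the labels do not expand; the series title names glucose starvation. H3K27me3, the mark laid down by Polycomb repressive complex 2, and the histone variant macroH2A1.1 were each profiled in 2 libraries per genotype and treatment, and SIRT7 in 2 WT libraries per treatment, with no SIRT7 ChIP from KO cells. The deposited files hold 1 segmentation per genotype and treatment (called by both, as WT-NT, WT-GS, KO-NT or KO-GS), each tied by the labels to both marks with replicates pooled, and 1 list of SIRT7 peaks per treatment. No value below therefore has a replicate error, the read depth is unknown, and differences between segmentations carry no test.

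Each bin is in 1 of 4 states, U1 to U4, and the sources used here do not give their meaning. U1 covers most of the genome, and U2, U3 and U4 together are called marked sequence below. Whether a state was defined alike in all 4 segmentations is also not given.

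Fgf3, Fgf4 and Fgf15 encode secreted fibroblast growth factors, ligands of receptor tyrosine kinases that act in embryonic patterning, and Fgf15 is the mouse counterpart of human FGF19, a hormone of bile acid control. Ccnd1 encodes cyclin D1, which drives entry into the cell cycle and is expressed in dividing fibroblasts, Ano1 a calcium-activated chloride channel, and Shank2 a scaffold protein of excitatory synapses. Genes of development that a cell type does not use are typical targets of Polycomb repressive complex 2, which is recruited to CpG-rich starts of genes. In the RefSeq gene order (GRCm38.p6), 10 protein-coding genes run from Shank2 to Ccnd1, in the order Shank2, Cttn, Ppfia1, Fadd, Ano1, Fgf3, Fgf4, Fgf15, LTO1 and Ccnd1. Cttn encodes the actin-binding protein cortactin and Fadd an adaptor of death receptors. The gene before Shank2 is Acte1, preceded by Dhcr7, an enzyme of cholesterol synthesis, and the gene after Ccnd1 is Tpcn2, a cation channel of endosomes and lysosomes. That annotation is of another build than the segmentations, so no gene was given a position in the interval, and states are reported by position and not by gene.

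Promoter sequence was found in RefSeq for 3 of the 6 genes (no entry for Shank2, Fgf15 and Ccnd1), and is shown because it tells how CpG-rich the starts of the FGF genes and of Ano1 are. Each run holds the 250 bases before and 50 after the start, 5′ to 3′ on the strand of the gene (plus for Fgf3 and Fgf4, minus for Ano1, GRCm38.p6), with each CG in capitals.
Fgf3: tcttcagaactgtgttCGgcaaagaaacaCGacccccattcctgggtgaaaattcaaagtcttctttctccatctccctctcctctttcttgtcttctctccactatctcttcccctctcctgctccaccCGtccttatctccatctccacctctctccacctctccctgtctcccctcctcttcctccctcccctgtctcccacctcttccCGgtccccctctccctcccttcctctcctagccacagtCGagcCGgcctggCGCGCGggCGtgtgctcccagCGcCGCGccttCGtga
Fgf4: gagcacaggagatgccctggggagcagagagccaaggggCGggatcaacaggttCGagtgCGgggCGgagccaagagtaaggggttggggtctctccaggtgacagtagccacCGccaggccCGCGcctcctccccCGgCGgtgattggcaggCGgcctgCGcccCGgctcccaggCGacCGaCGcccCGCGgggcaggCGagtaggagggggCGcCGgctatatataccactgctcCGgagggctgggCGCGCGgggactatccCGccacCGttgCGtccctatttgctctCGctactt
Ano1: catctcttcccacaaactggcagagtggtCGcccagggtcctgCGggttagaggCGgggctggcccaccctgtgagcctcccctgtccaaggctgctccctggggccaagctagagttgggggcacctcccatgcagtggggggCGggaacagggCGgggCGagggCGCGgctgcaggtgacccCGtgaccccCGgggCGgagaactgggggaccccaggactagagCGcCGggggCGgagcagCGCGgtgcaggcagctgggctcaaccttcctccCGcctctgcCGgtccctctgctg
Fgf4 had 28 CG dinucleotides in 300 bases, a number reached by 14.2% of the 32851 promoters of that length in the table. Ano1 had 18, reached by 29.7% of promoters, and Fgf3 had 14, reached by 36.3%, against a median of 7. In Fgf3 most of the capitals lie at the 3′ end of the run, whereas in Fgf4 they are spread along it. The states at these starts were not read, for want of their mm9 positions.

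Marked sequence covered about as much of the interval in WT-NT, WT-GS and KO-GS, and less in KO-NT. U1 covered 31.7% of bins (WT-NT) and 28.7% (WT-GS) in the wild type, and 51.1% (KO-NT) and 27.6% (KO-GS) in the knockout. The other 3 segmentations thus lay within a few percentage points of one another, and KO-NT stood above all of them. U2 covered 27.6% (WT-NT) and 27.9% (WT-GS) in the wild type, and 15.8% (KO-NT) and 29.5% (KO-GS) in the knockout. U3 covered 34.2% (WT-NT) and 38.9% (WT-GS) in the wild type, and 31.6% (KO-NT) and 36.4% (KO-GS) in the knockout. U4 covered 6.53% (WT-NT) and 4.53% (WT-GS) in the wild type, and 1.5% (KO-NT) and 6.47% (KO-GS) in the knockout. KO-NT was lowest for each marked state, by the widest margin in U2.

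**Figure D1:**
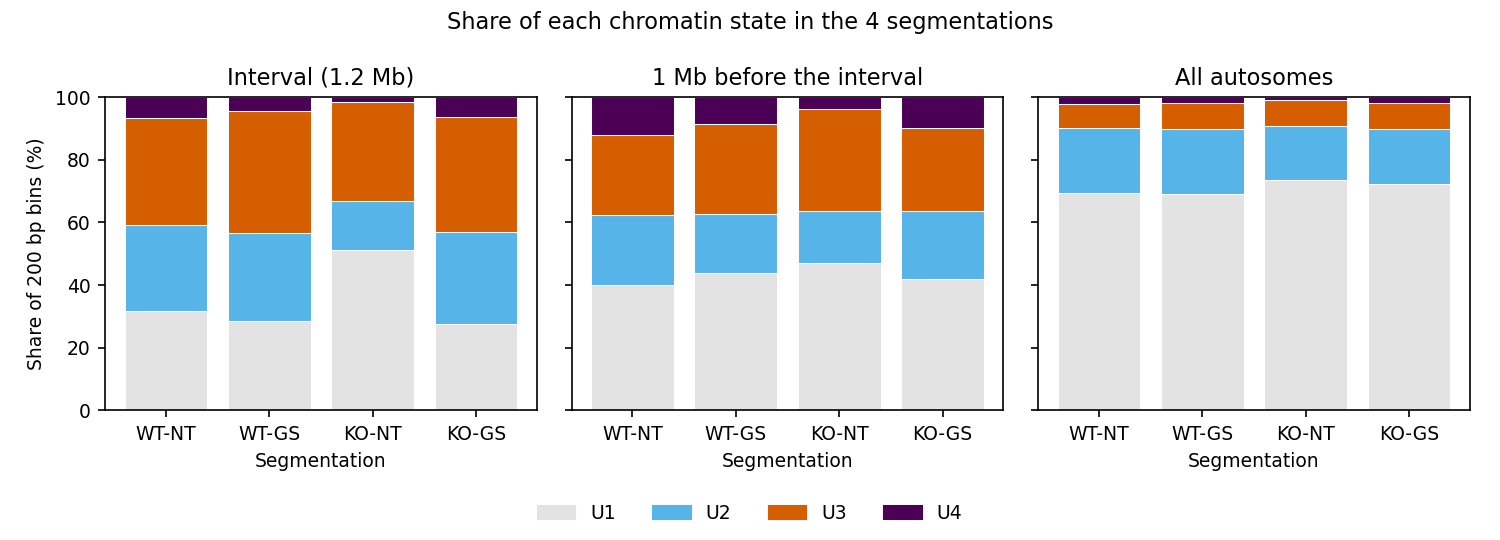
Share of 200 bp bins in each state (percent, stacked to 100) in the 4 segmentations, for the interval, the 1 Mb before it and all autosomes, with 1 pooled segmentation per bar and no error. In the interval the U1 part is 51.1% in KO-NT and 27.6 to 31.7% in the other bars, whereas over the autosomes it is 69.0 to 73.5% in all bars.

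The interval was rich in U3 in all 4 segmentations, and so was the 1 Mb before it, with 25.5% (WT-NT) to 32.4% (KO-NT). Over all autosomes U3 covered 7.69% (WT-NT) and 8.40% (WT-GS) in the wild type, and 8.30% (KO-NT) and 8.23% (KO-GS) in the knockout. Of 2463 windows of 1 Mb on the autosomes, the first 1 Mb of the interval had 34.6% U3 in WT-NT, against a median of 3.82%, and 63 windows had more. In WT-GS 56 windows had more, and in KO-GS 61. In KO-NT that first 1 Mb had 29.5% U3, below the 95% quantile of 30.1%, and 136 windows had more. KO-NT also had the most U1 of the 4 segmentations over the autosomes (73.5%, against 69.0 to 72.3% in the others) and the least U4 (1.01%, against 1.71 to 2.12%). The part that this property of the whole KO-NT segmentation has in the values of the interval was not tested.

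Marked sequence in the interval fell into blocks, with U1 runs between them of which several were shared by the 4 segmentations, as the track of states shows. Blocks in this paragraph are given with U1 gaps of up to 5 kb bridged. The first 41.4 kb were U1 throughout. A U3-rich block began near 151049401 and reached 151171800 in WT-NT, where it was 71.4% U3 and 19.6% U2 over 122 kb. In WT-NT it was followed, after a 1.4 kb block of U2, by a U2-rich stretch, 57.4 kb long from 151183601. In WT-GS a block of 16.6 kb from 151184001, 73.5% U3, came before the U2-rich stretch, which was 61.6 kb long from 151207001. Between about 151316601 and 151605000 several U3-rich blocks lay between short runs of U1. The longest run of U1 shared by all 4 segmentations spanned 125.2 kb, from 151615401 to 151740600, and its right border, at 151740600, was the same bin in each. Beyond it a long block ran from 151847401 to 152096200 in WT-NT (249 kb, 45.5% U3, 32.8% U2 and 20.7% U4), and the last block began at 152129601 in WT-NT and was 98.6% U2.

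**Figure D2:**
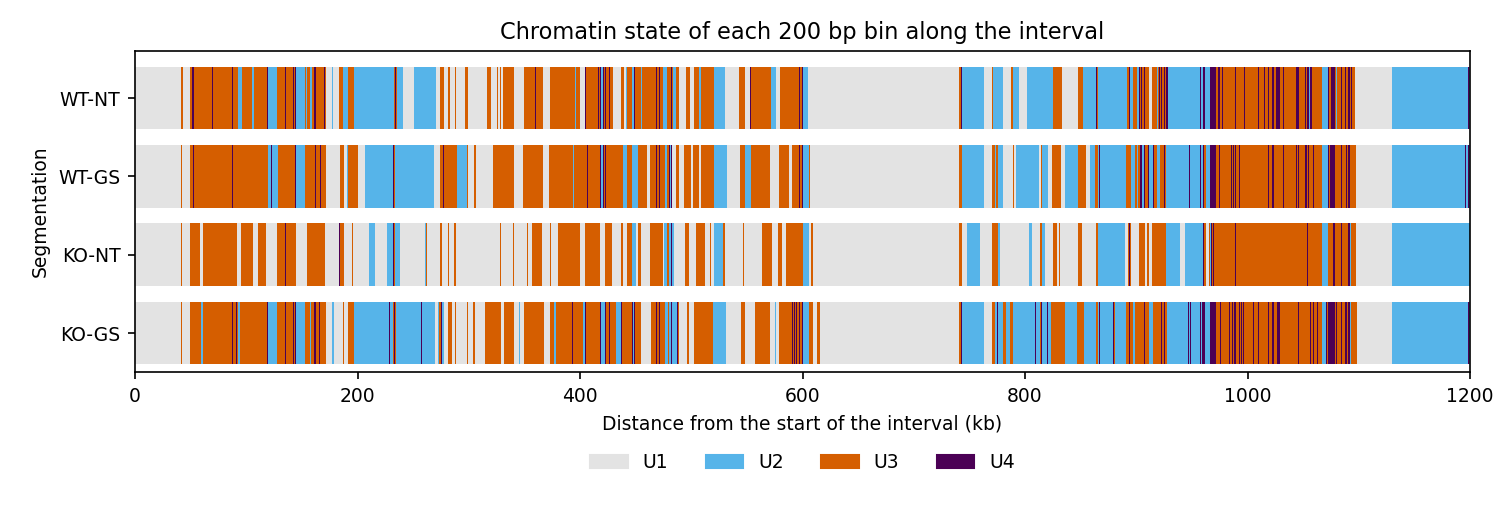
State of each 200 bp bin (colour) along the 1200 kb interval in the 4 segmentations (rows), with distance from the start of the interval in kb on the x axis. The run of U1 that spans 125.2 kb in all rows lies near the middle, and on both sides of it the KO-NT row, 51.1% U1, is broken by more grey than the other rows.

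KO-NT had the most marked blocks. The U1 shares of KO-NT and KO-GS chose the interval, and blocks are bounded by U1, so their number and length are given as a description. Counting every run of marked bins with no gap bridged, there were 30 blocks (WT-NT) and 27 (WT-GS) in the wild type, and 54 (KO-NT) and 26 (KO-GS) in the knockout. Their longest spanned 182 kb (WT-NT) and 239 kb (WT-GS) in the wild type, and 132 kb (KO-NT) and 328 kb (KO-GS) in the knockout. The 328 kb block of KO-GS ran from 151770401 to 152098000, over sequence that held 7 separate marked blocks of KO-NT when U1 gaps of up to 5 kb were bridged in both. State segments were fewest in KO-NT (234, against 432, 365 and 434 in WT-NT, WT-GS and KO-GS). Most of that deficit was in U4, with 58 segments in KO-NT and 143 to 181 in the others.

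In KO cells, U1 was the state that differed most between NT and GS, as the choice of the interval fixes. The difference, GS minus NT, was -23.5 percentage points, or 282 kb, and the opposite differences were 13.7 points in U2, 4.82 in U3 and 4.97 in U4. In all 31.2% of bins differed in state (375 kb), against 11.2% over the genome. Of the 3064 bins that were U1 in KO-NT, 1458 were marked in KO-GS (47.6%, against 6.2% over the genome), 841 as U2, 582 as U3 and 35 as U4. In the other direction, 48 of 2936 marked bins of KO-NT were U1 in KO-GS (1.63%, against 14.2% over the genome). Nothing is read from these shares against the genome, since the same contrast chose the interval. A further 367 marked bins were in another marked state (12.5%, against 10.7%).

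Most of the sequence that was U1 in KO-NT and marked in KO-GS lay next to sequence marked in KO-NT. They formed 61 stretches with a median length of 3.4 kb, of which 17 were 5 kb or longer. Of the 61, 55 touched a marked bin of KO-NT on at least 1 side, and 34 lay between marked bins on both sides, which made up 75.6% of their 292 kb. The 6 that touched none came to 8.8 kb. Such adjacency was common to the comparisons: of stretches that were U1 in the first segmentation and marked in the second, 27 of 28 touched marked sequence from WT-NT to WT-GS, 9 of 10 from WT-NT to KO-NT and 18 of 22 from WT-GS to KO-GS. The longest stretch, 26.2 kb from 151777601 to 151803800, was 76.3% U2 in KO-GS, and 46.6% of it was marked in WT-NT and 57.3% in WT-GS. The next, 22 kb from 151238601 to 151260600, was 99.1% U2 in KO-GS, 56.4% marked in WT-NT and wholly marked in WT-GS.

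Single segments with 1 change of state were short. There were 330 in KO between NT and GS, with a median of 400 bp, and 135 of them were a single bin. The 5 longest all went from U1 to U2: 18.8 kb from 151238601, 13.4 kb from 151197001, 13 kb from 151790801, and 10.6 kb each from 151215801 and 151836001. Together these 5 held 17.7% of the changed sequence. The segments from 151197001 and 151215801 were U2 throughout in WT-NT too, as the comparison of genotypes below shows.

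Most of the sequence that KO-GS had marked and KO-NT had not was marked in WT. Of the 1458 bins, 940 were marked in both WT segmentations (64.5%), 270 in WT-GS only (18.5%), 141 in WT-NT only (9.67%) and 107 in neither (7.34%). Of all 6000 bins of the interval 3849 were marked in both WT segmentations, but 2839 of these were marked in KO-NT and could not be among the 1458. The share of the 3849 in all bins is therefore no base for that 64.5%. In KO-GS, 947 of the 1458 were in the state of WT-NT (65.0%) and 1033 in that of WT-GS (70.9%). Over the genome the bins that were U1 in KO-NT and marked in KO-GS were marked in both WT segmentations in 55.3% of cases and in neither in 17.7%. Of the 13274547 bins of the genome 3503186 were marked in both WT segmentations. Of these 3008028 were marked in KO-NT, so that share is no base for the 55.3% either. Among the 3849 bins of the interval that both WT segmentations had marked, 73.8% were marked in KO-NT, 97.7% in KO-GS, and over the genome 85.9 and 89.8%. Among the 1472 bins that were U1 in both WT segmentations, 0.679% were marked in KO-NT and 7.81% in KO-GS, against 2.33 and 1.85% over the genome. Since U1 in KO-NT and KO-GS chose the interval, nothing is read from these shares against the genome.

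**Figure D3:**
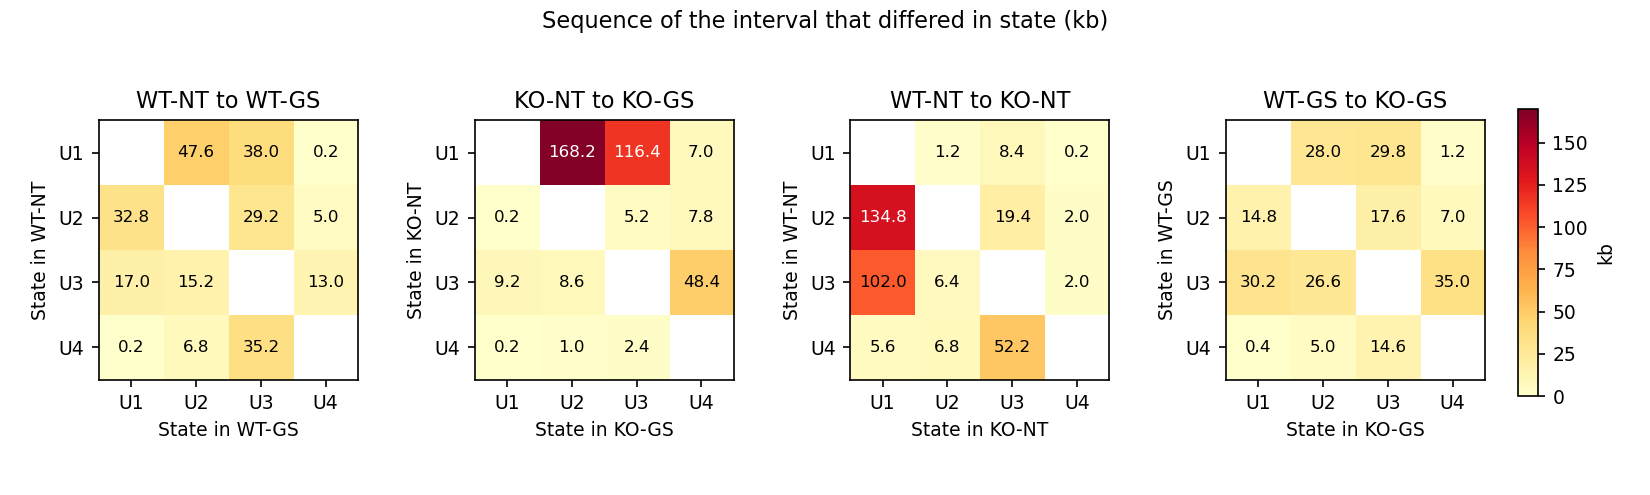
Sequence of the interval, in kb, whose state differed in each of the 4 comparisons, by the state in the first segmentation (rows) and in the second (columns), with unchanged sequence left blank. The darkest cells are U1 to U2 (168 kb) and U1 to U3 (116 kb) from KO-NT to KO-GS, and U2 to U1 (135 kb) and U3 to U1 (102 kb) from WT-NT to KO-NT.

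In WT cells the interval differed less between treatments, and in both directions. This comparison shares no library with the one that chose the interval. The difference in U1, GS minus NT, was -2.98 percentage points (-35.8 kb), with 0.217 points in U2, 4.77 in U3 and -2 in U4. In all 20.02% of bins differed (240.2 kb), against 9.54% of the whole genome. These shares are not like for like, since marked sequence was 68.3% of the interval in WT-NT and 29.5% of the genome. Marked bins of the genome changed more often than its U1 bins, so the shares are also given by starting state. Of the 1901 bins that were U1 in WT-NT, 429 were marked in WT-GS (22.6%, against 4.98% over the genome). Of the 4099 marked bins, 250 were U1 in WT-GS (6.10%, against 10.5% over the genome) and 522 were in another marked state (12.7%, against 9.88%). In the first 1 Mb of the interval the U1 difference was -3.42 points. Over the 2463 windows the median was -0.0600 points and the range from the 5% to the 95% quantile ran from -6.20 to 4.54, so this difference lay inside the common range, with 295 windows lower.

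The KO states of the longest differences in WT are given as a description. These differences lay in sequence that KO-NT had as U1 and KO-GS mostly had as marked. Over the whole interval, 97.4% of the U1 bins of WT-NT were U1 in KO-NT. Only 5.31% of the marked bins of WT-GS were U1 in KO-GS. KO-NT and KO-GS also chose the interval, so no shared response of the genotypes is read from these states. The 5 longest changed segments were 11.8 kb from 151835601, 9.6 kb from 151241001, 7.2 kb from 151429601, 7 kb from 151289401 and 6.8 kb from 151794601. All were U1 in WT-NT, the one from 151429601 was U3 in WT-GS, and the other 4 were U2. The stretches from 151835601, 151241001, 151429601 and 151794601 were U1 throughout in KO-NT and marked throughout in KO-GS. The stretch of 8 kb that holds the segment from 151289401 was the exception, with no marked bin in KO-GS and 2.5% of bins marked in KO-NT. In the opposite direction the longest stretch was 6.4 kb from 151200601, which was U2 in WT-NT, U1 in WT-GS and KO-NT, and marked in KO-GS.

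Between genotypes in NT cells, the interval had more U1 in KO. U1 covered 31.7% in WT-NT and 51.1% in KO-NT, and KO minus WT was 19.4 percentage points (233 kb) in U1, -11.8 in U2, -2.53 in U3 and -5.03 in U4. In all 28.4% of bins differed (341 kb), against 11.4% over the genome. The KO-NT segmentation is 1 of the 2 that chose the interval, so its height here is not independent of that choice. Of the 4099 bins marked in WT-NT, 1212 were U1 in KO-NT (29.6%, against 19.5% over the genome), from U2 in 674 bins, U3 in 510 and U4 in 28. Only 49 of 1901 U1 bins of WT-NT were marked in KO-NT (2.58%, against 3.98%), and 444 bins moved among marked states (10.8%, against 9.73%). The 5 longest changed segments were 13.4 kb from 151197001, 11.4 kb from 151852201, 10.6 kb from 151215801, 10.6 kb from 151553401 and 10 kb from 151250601. The one from 151553401 was U3 in WT-NT, the other 4 were U2, and all were U1 in KO-NT.

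Between genotypes in GS cells the state shares were close. U1 covered 28.7% in WT-GS and 27.6% in KO-GS, and KO minus WT was -1.13 percentage points in U1, 1.68 in U2, -2.48 in U3 and 1.93 in U4. Over the autosomes the U1 difference was 3.33 points, with more U1 in KO. Still, 17.5% of the bins of the interval differed in state (210.2 kb), against 10.1% over the genome. These shares are not like for like, since marked sequence was 71.3% of the interval in WT-GS and 29.9% of the genome. The differing bins went both ways. Of 1722 U1 bins of WT-GS, 295 were marked in KO-GS (17.1%, against 3.38% over the genome). Of 4278 marked bins, 227 were U1 (5.31%, against 16.5%) and 529 were in another marked state (12.4%, against 9.26%). KO-GS is the other segmentation of the comparison that chose the interval, so its low U1 is not independent of that choice. The longest changed segment was 8.8 kb from 151289401, U2 in WT-GS and U1 in KO-GS, followed by 6.8 kb from 151315001, U1 in WT-GS and U3 in KO-GS.

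Read over all 4 segmentations, 3523 of the 6000 bins kept 1 state (58.7%, against 81.4% of the genome). They were U1 in 1355 bins, U3 in 1290, U2 in 827 and U4 in the rest. KO-NT was the lone exception, with the other 3 alike, in 861 bins (14.4%, against 4.04% of the genome), and in 752 of these it was U1. WT-NT was the lone exception in 238 bins (3.97%), WT-GS in 223 (3.72%) and KO-GS in 237 (3.95%), against 2.73, 2.67 and 2.84% of the genome. The most frequent such combinations were U2 in all but KO-NT, which was U1 (85 kb), and U3 in all but KO-NT, which was U1 (64.4 kb). Where WT-NT and WT-GS had the same state, KO-NT shared it in 78.3% of bins and KO-GS in 91.4%, against 93.1 and 94.5% over the genome. By state, KO-NT matched in 99.3% of U1 bins, 64.3% of U2, 76.2% of U3 and 32.0% of U4, where the genome had 97.7, 80.5, 84.6 and 50.01%. KO-GS matched in 92.2% of U1 bins, 96.1% of U2, 88.6% of U3 and 77.3% of U4, where the genome had 98.1, 83.0, 87.4 and 76.3%. The match of KO-NT was lowest for U4 in the genome too, and that of KO-GS for U3 and U4 was close to the genome. The contrast of KO-NT with KO-GS chose the interval, so nothing is read from their shares here against the genome.

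The difference between KO-NT and the other segmentations was spread unevenly along the interval. In 9 of the 12 windows of 100 kb KO-NT had the highest U1 share. From 151200001 to 151300000, U1 covered 30.6% (WT-NT) and 12.8% (WT-GS) in the wild type, and 76.8% (KO-NT) and 20.4% (KO-GS) in the knockout. From 151800001 to 151900000 the shares were 15.4% (WT-NT) and 13% (WT-GS) in the wild type, and 56.2% (KO-NT) and 0% (KO-GS) in the knockout. These windows and that from 151300001, with 66.4% (KO-NT) and 29% (KO-GS), held 53.2% of the U1 difference between the KO segmentations. From 151100001 to 151200000 U1 covered 47.8% in KO-NT and 10.4 to 16.4% in the others.

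U1 was close in all 4 segmentations in other windows. From 151600001 to 151700000 U1 covered 88.4 to 95% of bins. In the last window, from 152100001, U1 covered 29.6% in WT-NT, WT-GS and KO-NT and 29.8% in KO-GS, and U2 69.4 to 70.4%. The window before it, from 152000001, had 2 to 3.8% U1 in all 4 but differed among marked states, with 84.6% U3 and 6.8% U4 in KO-NT and 63.6 to 73.8% U3 and 18.6 to 25.6% U4 in the others.

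**Figure D4:**
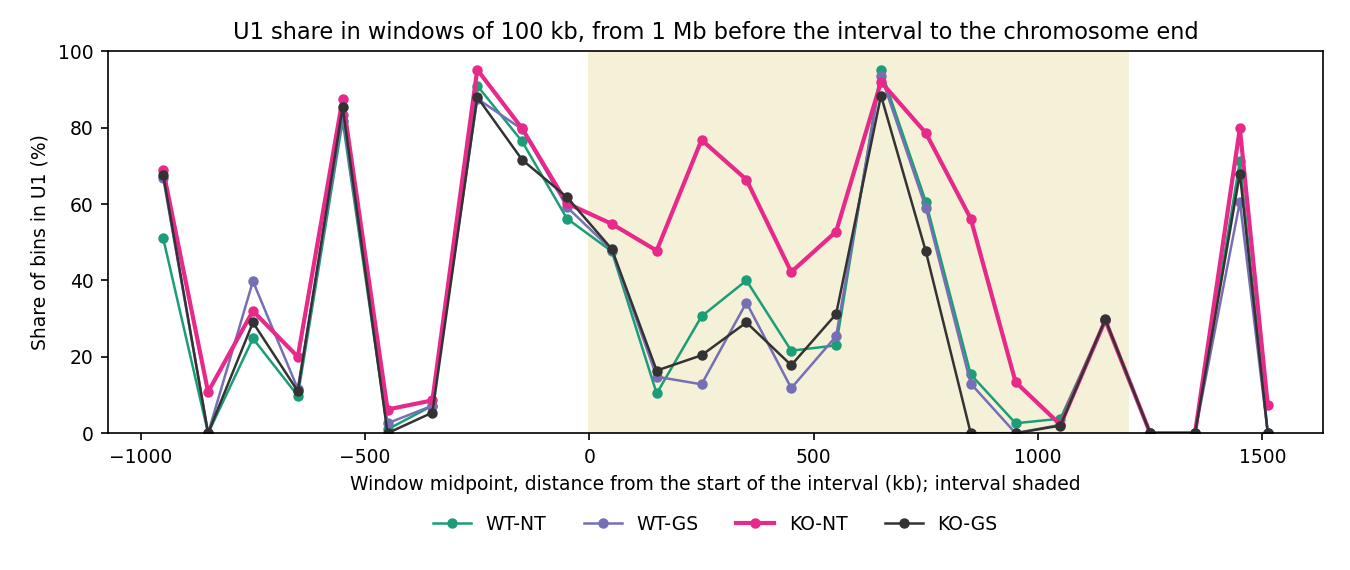
Share of bins in U1 (percent) in consecutive windows of 100 kb (points at window midpoints, kb from the start of the interval), from 1 Mb before the interval to the end of the chromosome, in the 4 segmentations. Inside the shaded interval the KO-NT line is the highest in 9 of 12 windows, with 76.8% from 151200001, where the others lie between 12.8 and 30.6%, and before the interval all lines vary widely from window to window, that of KO-NT between 6.2 and 95.2%.

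U4 was scattered through U3 in short segments. Its segments had a median length of 200 bp, or 1 bin, in each segmentation, and 75.4% of U4 borders were with U3 (WT-NT) and 77.3% (WT-GS) in the wild type, and 81.0% (KO-NT) and 74.3% (KO-GS) in the knockout. The longest run of U4 lay at nearly the same place in each, from 151966001 to 151971400 in WT-NT (5.4 kb), and was 4.6 kb long in WT-GS, 1.2 kb in KO-NT and 4.4 kb in KO-GS. KO-NT had less U4 than KO-GS in 12 of 12 windows, and less than WT-NT and than WT-GS in 11 of 12 each. Of the 392 U4 bins of WT-NT, 261 were U3 in KO-NT and 28 were U1. In WT, 176 of the 392 were U3 in WT-GS, and 53.8% left U4 in all, against 46.6% over the genome. From KO-NT to KO-GS, 242 bins went from U3 to U4, and 18 of 90 U4 bins left it (20%, against 36.8% over the genome). Of the U4 bins of WT-NT, 323 of 392 were in another state in KO-NT (82.4%, against 65.8%), and of those of WT-GS, 100 of 272 were in another state in KO-GS (36.8%, against 37.4%). Shares that involve KO-NT or KO-GS come from the segmentations that chose the interval, so they are not read against the genome.

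At the edges of the interval the KO segmentations differed less in U1 than over the whole interval, where GS minus NT was -23.5 percentage points. In the last 100 kb before the interval, from 150900001, U1 covered 60.2% (KO-NT) and 61.8% (KO-GS), and in the first 100 kb inside it 54.8 and 48.2%. At the other edge it covered 29.6 and 29.8% just inside and 0% in all 4 segmentations just outside, from 152200001, where U2 covered 94.4 to 95.8%. Over the 1 Mb before the interval U1 covered 39.9% (WT-NT) and 43.8% (WT-GS) in the wild type, and 46.9% (KO-NT) and 42.0% (KO-GS) in the knockout, so that GS minus NT in KO was -4.94 points there. Among 1 Mb windows of the autosomes ranked by that difference, the lowest was the first 1 Mb of the interval, with -28.2 points, and the next, from 38000001 on the same chromosome, -21.0.

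No SIRT7 peak of either list lay in the interval or within 500 kb of it. The GS list holds 2671 peaks, 164 of them on chromosome 7 (1.08 per Mb, against 0.919 per Mb over the autosomes), and the NT list 90, of which 4 are on chromosome 7. The GS peak nearest to the interval ran from 144883458 to 144884471, 6.12 Mb before its start, and the remaining 7.64 Mb of the chromosome held none. It was U1 in all 4 segmentations, and its score, as the authors deposited it, was 778. The nearest NT peak ran from 147037560 to 147038464, 3.96 Mb before the interval, with a score of 659, and was U1 in WT-NT, WT-GS and KO-NT and U2 in KO-GS. A lack of listed peaks over 1.2 Mb is common: of 1995 autosomal tiles of that length, 43.1% held no GS peak and 97.2% no NT peak. The difference between the KO segmentations was thus in sequence without a listed SIRT7 peak in WT cells, and binding below the threshold of the lists was not measured here.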

How the data were processed

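The 28 libraries comprise 8 of H3K27me3, 8 of mH2A1, 4 of SIRT7 and 8 inputs, 2 per ChIP target, genotype and treatment. The tools listed, without roles, in the submitters' processing notes are MACS 1.4.2, deepTools 2.4.2, Bowtie, Trimmomatic 0.36, SAMtools 0.1.19 and FastQC 0.11.3, with the builds mm9 and hg19. The sources used here do not name the segmentation tool. The authors deposited each segmentation as state names and each peak with a whole-number score of at most 1000, computed in a way the sources used here do not give.

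Segments were expanded to 200 bp bins (Python 3.11.15, numpy 2.4.6, pandas 2.3.3). Shares, from-to pairs, runs of changed bins and peaks overlapping by 1 bp were counted, after a check on simulated segmentations. Depth is unknown, replicates are pooled, and no test was made. Named were the 5 longest changed segments, the longest runs, windows of 100 kb and nearest peaks, and other windows, blocks and stretches were singled out after their values were seen. The interval, genes and measures were chosen with earlier results of these data known. A planned list of related genes was not evaluated, since no mm9 annotation was used here.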

Additional observations from a re-analysis of the deposited data

Results flagged for a closer look

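The U4 share of the interval differed between GS and NT in opposite directions in the genotypes. GS minus NT was -2 percentage points in WT (6.53 to 4.53%) and 4.97 in KO (1.5 to 6.47%). The size in KO rests in part on segments under 1 kb, since it was 2.83 points over bins of 1 kb and 1.90 once short segments were joined to their neighbours. Each is the difference of 2 pooled segmentations, and the difference between genotypes was not tested. U4 over all autosomes went the same ways, from 2.12 to 1.71% in WT and from 1.01 to 1.85% in KO.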

How the results depend on the processing

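The counts and shares were recomputed with 1 kb bins, with segments under 1 kb joined to the longer neighbour, in the first 1 Mb of the interval, and with 100 kb left off each side. Of 64 share differences so recomputed, 1 reversed, 22 moved beyond the 95% interval of the difference over bins and 41 did not. That interval covers counting error only, and neighbouring bins are not independent. U2 in WT, GS minus NT, was 0.217 percentage points and -0.133 with short segments joined, so its direction depends on that setting.

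U4 depended on short segments. With 1 kb bins its difference was 2.83 points in KO between treatments, -3.92 between genotypes in NT and 0.417 in GS. With short segments joined these were 1.90, -2.62 and 0.867, while U3 was 7.28 in KO between treatments and -4.72 between genotypes in NT. The 1 Mb window is the one by which the interval was chosen, so its U1 difference in KO is no independent check. In that window, KO GS minus NT was -28.2 for U1, 16.8 for U2, 7.30 for U3 and 4.14 for U4, and KO minus WT in NT was 23.4, -14.2, -5.14 and -4.06. With 100 kb left off each side, KO GS minus NT was -27.6 for U1, 16.04 for U2 and 5.74 for U4, and KO minus WT in NT was 22.5, -13.9 and -5.74.

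The share of changed bins in WT between treatments was 18.2% with 1 kb bins, 18.2% with short segments joined, 21.8% in the 1 Mb window and 23.3% with 100 kb left off. In KO it was 29.1, 35.3 and 36.4% under the last 3 of these, and between genotypes in NT 26.6, 31.5 and 32.9%. Between genotypes in GS it was 15.5, 14.3, 19 and 20.3% under all 4. Changed segments of 1 kb or more numbered 63 in WT and 89 in KO between treatments, and 85 in NT and 47 in GS between genotypes. With short segments joined all changed segments numbered 111, 136, 133 and 107 in that order, so most deposited changed segments are short. Peak counts stayed 0 within 500 kb. The upper 50% of peaks by score could give no other count in the interval, since the full lists had none there. The state of the nearest peaks was the same at the peak midpoint.

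No paired analysis was possible because replicates are pooled within each segmentation and peak list, and leaving out a replicate was not run, as the files pool them. What depth limits cannot be said, since read totals are unknown.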
